A study of Mus musculus with 4 samples.

Results

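The MYC network and the polyamine enzymes were described over 4 Affymetrix Gene 1.0 ST arrays of the mouse pro-B cell line Ba/F3, which depends on the cytokine interleukin-3 (IL-3). The members were 10 genes chosen by name: Myc, Mycn, Max, Mxd1, Mxi1 and Mnt of the network, and Odc1, Srm, Sms and Sat1 of polyamine metabolism. A gene counted as measured when the platform annotation gave at least 1 probe set that symbol alone, and 9 of the 10 genes met this, of 19935 genes in all. Sms did not, because both of its probe sets also carry the symbol Gm8234. Of the measured members 8 had 1 probe set and Odc1 had 2, which were averaged.

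The arrays fall into 3 groups. Ba/F3 cells with doxycycline-inducible BCR-ABL, an oncogenic tyrosine kinase that imatinib inhibits, gave 1 array from growth with doxycycline at 500 ng/ml and IL-3, and 2 arrays, A and B, from growth with doxycycline at 500 ng/ml and no IL-3. From the parental line, kept in IL-3, there was 1 array. All cultures were taken in logarithmic phase, per the labels' protocols, and the series asked which genes are driven by BCR-ABL and by the growth factor that gives resistance to imatinib. Whether A and B are separate cultures, and how many clones the inducible line holds, is not in the labels. The p-values rest only on how far A and B differ, mostly pooled over all genes, a spread that may be technical. The lone parental and IL-3 arrays were assumed to vary like A and B. No array of the inducible line without doxycycline, and none of parental cells with doxycycline, was analysed here, so BCR-ABL, doxycycline and the derived line cannot be told apart.

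MYC is a transcription factor that binds the DNA sequence CACGTG, the E-box, as a dimer with MAX, and it raises genes of ribosome production, nucleotide synthesis and cell growth. MAX also pairs with MXD1, MXI1 and MNT, which bind the same sequence and repress transcription, and MXD proteins are known to accumulate as blood cells stop dividing. Ornithine decarboxylase, encoded by the MYC target Odc1, makes putrescine. The spermidine synthase SRM and the spermine synthase SMS extend putrescine in turn to spermidine and spermine, and the acetyltransferase SAT1 starts their breakdown and export.

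Every value was taken as a log2 difference from the parental array, with the base assumed. The deposited value of each probe set is 0 on that array. Levels of different genes were therefore not compared, and the pro-B identity of the line could not be read from marker levels. The median difference over all genes was 0.01 on the IL-3 array, 0.00 on A and -0.08 on B, and the SD of B minus A over genes was 0.196. In BCR-ABL cells without IL-3 set against parental cells, limma called 5.19% of all genes higher and 2.87% lower at an adjusted p under 0.05. Of the markers of other blood cells, it called 2 of 10 mast cell and basophil genes higher, Cpa3 (8.21-fold) and Hdc (1.66-fold), and 1 lower, Cma1 (1.87-fold). It called 3 of 7 erythroid and megakaryocyte genes lower, Gfi1b (1.94-fold), Klf1 (1.90-fold) and Epor (1.62-fold). After centring of each array on its median, Hdc and Gfi1b were not called (limma adjusted p = 0.0554 and 0.105), and the other named markers were. With a robust variance prior Gfi1b was also not called (limma adjusted p = 0.135). None of 11 B lineage, 11 neutrophil and monocyte or 8 T and NK cell genes passed. At an unadjusted p under 0.05 there were 1, 0 and 1, against 16.6% of all genes. The part of these shifts in the values below was not tested. Since whole cultures were measured, fewer cells with a transcript and less of it per cell cannot be told apart.

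Arrays A and B, from BCR-ABL cells lacking IL-3 (n = 2), were first set against the parental array (n = 1), which addressed how the network and the enzymes stand when the kinase replaces the cytokine. The polyamine synthesis genes Srm and Odc1 rose, and none of Myc, Mycn, Max, Mxd1, Mxi1 and Mnt passed the test. Of 9 members 2 passed limma's test as higher and 0 as lower at an adjusted p under 0.05, where 8.06% of all genes were called, 5.19% higher and 2.87% lower. At an unadjusted p under 0.05 there were 5 members, against 16.6% of all genes. The median over the members was 0.16 and over all genes -0.04 (log2).

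**Figure D1:**
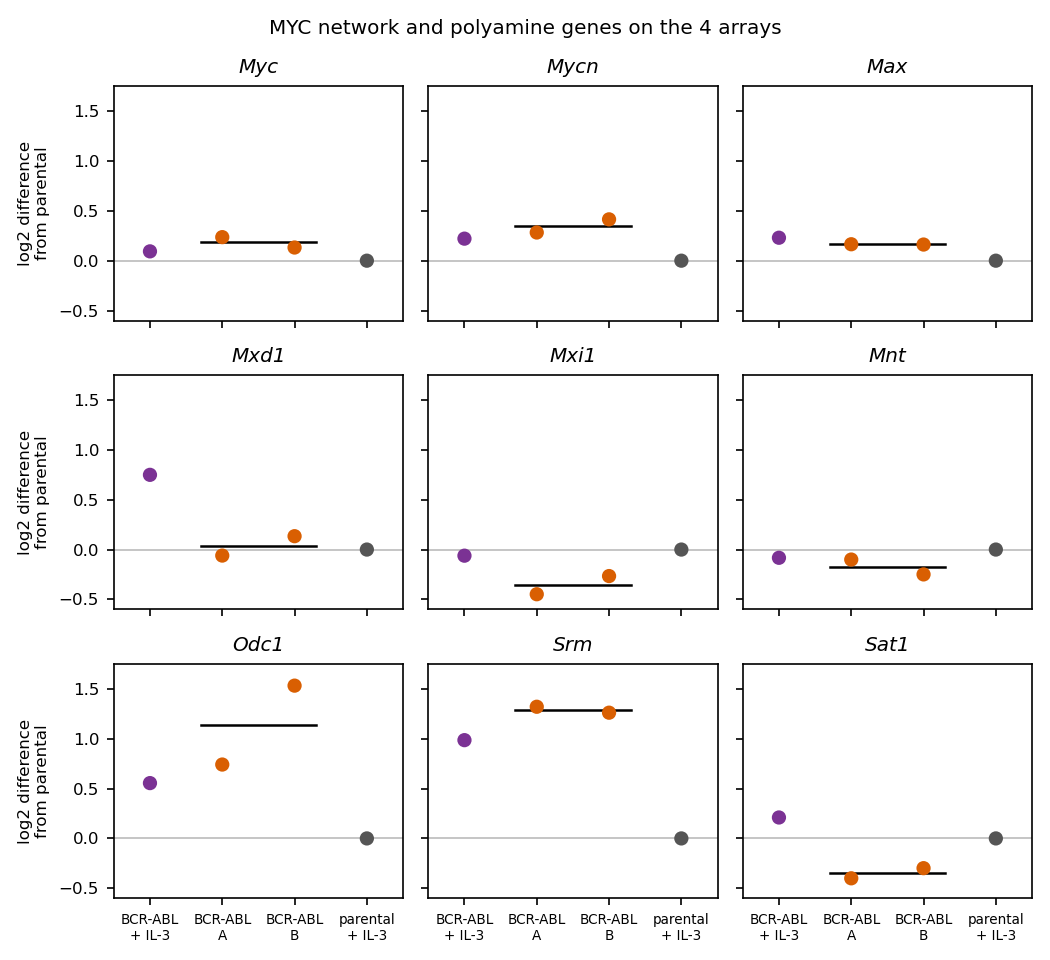
Log2 difference from the parental array (vertical axis) of the 9 measured members on the IL-3 array of BCR-ABL cells (purple), the BCR-ABL arrays A and B without IL-3 (orange, black line at their mean) and the parental array (grey, 0 by construction). Srm lies near 1.3 on both A and B, Odc1 differs between A and B by 0.79, and Mxd1 stands apart on the IL-3 array at 0.75.

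Srm, whose product converts putrescine to spermidine, stood at 1.32 on A and 1.26 on B, against 0 on the parental array. The BCR-ABL arrays lay close together and both more than 2-fold above the parental one, which held for 1 of 9 members and for 1.31% of all genes. The difference was 2.44-fold (log2 1.29, SE 0.15, limma adjusted p = 2.19e-05), with a 95% interval of 0.97 to 1.61 on the log2 scale that is not adjusted for the number of genes. Srm ranked 128 from the top among the 19935 genes.

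Odc1, the entry enzyme of the pathway, stood at 0.74 on A and 1.53 on B, against 0 on the parental array. Both BCR-ABL arrays were higher, and B was more than 2-fold above the parental array while A was not. The difference was 2.20-fold (log2 1.14, SE 0.22, limma adjusted p = 0.00289). The gap of 0.79 between A and B was exceeded by 0.336% of all genes. The call was lost after centring of each array on its median (adjusted p = 0.128) and with a robust variance prior (adjusted p = 0.335). Without B the difference was 0.74 and without A it was 1.53.

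The 2 Odc1 probe sets disagreed in size. The first stood at 0.69 on A and 1.83 on B, and the second at 0.80 on A and 1.23 on B, against 0 on the parental array for each. Both were highest on B, and their gaps between B and A were 1.14 and 0.44. When all probe sets of the table were fitted singly, the second was called (log2 1.01, limma adjusted p = 0.0348) and the first was not (log2 1.26, adjusted p = 0.159).

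Sms, the spermine synthase gene that could not be told apart from Gm8234, was left out of the counts. Its probe sets stood at 0.45 and 0.42 on A and at 0.71 and 0.64 on B, against 0 on the parental array. All of these BCR-ABL values were above the parental one. The differences of 0.58 and 0.53 did not pass in the fit of single probe sets (limma adjusted p = 0.110 and 0.127).

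**Figure D2:**
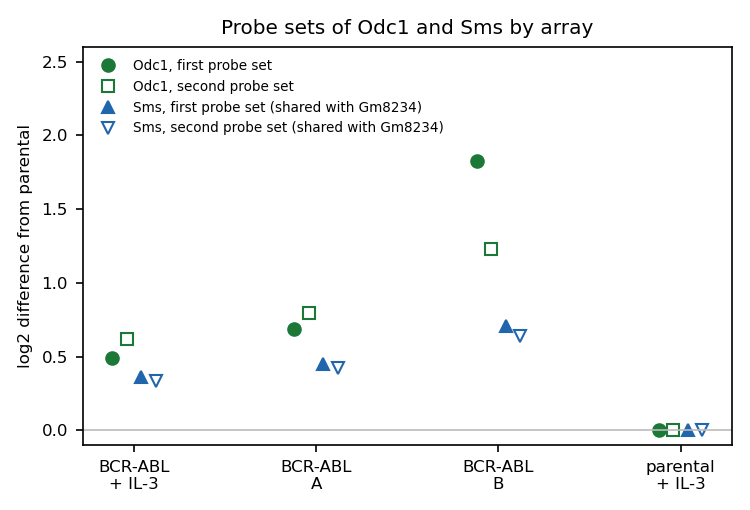
Log2 difference from the parental array (vertical axis) of the 2 Odc1 probe sets (green) and the 2 Sms probe sets shared with Gm8234 (blue) on the IL-3 array of BCR-ABL cells, the BCR-ABL arrays A and B without IL-3 and the parental array (0 by construction). The 4 probe sets were highest on B, where the Odc1 probe sets read 1.83 and 1.23.

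Sat1, whose product acetylates spermidine and spermine, stood at -0.40 on A and -0.30 on B, against 0 on the parental array. Both BCR-ABL arrays were lower, the opposite side from Odc1 and Srm. The difference of -0.35 (SE 0.15, interval -0.67 to -0.02) did not pass (limma adjusted p = 0.243).

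Promoter sequences are shown because MYC and its partners meet at the E-box, and because Odc1 was a called member. RefSeq windows of 300 bases (GRCm38.p6, 250 before the start of transcription and 50 from it) matched 8 of the 10 genes, all but Myc and Srm. The letters CACGTG, which read the same on both strands, were in 3 of the 11 windows of these genes and in 7.15% of all 32851 windows. They were found in Max, Mnt and Sms, at -3, -123 and -196, counting the first transcribed base as 0. The looser form CANNTG, which includes CACGTG, was in 7 of the 11 windows and in 72.3% of all windows. The 30 bases around each CACGTG, in capitals, are as follows.
Max, chr12:76962234-76962263, minus strand: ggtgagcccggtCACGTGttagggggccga
Mnt, chr11:74830789-74830818, plus strand: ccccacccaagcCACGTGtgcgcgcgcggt
Sms, chrX:157492466-157492495, minus strand: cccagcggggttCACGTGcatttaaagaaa

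The Odc1 window held neither CACGTG nor CANNTG. The E-boxes for which Odc1 is known as a MYC target lie in its first intron, outside this window. The 250 bases before its start are printed with the letters GGGCGG and their reverse complement CCGCCC, the core of the GC box, in capitals. There were 4 of these, and 32.7% of all windows of this length held at least 1.
Odc1, chr12:17544623-17544872, plus strand: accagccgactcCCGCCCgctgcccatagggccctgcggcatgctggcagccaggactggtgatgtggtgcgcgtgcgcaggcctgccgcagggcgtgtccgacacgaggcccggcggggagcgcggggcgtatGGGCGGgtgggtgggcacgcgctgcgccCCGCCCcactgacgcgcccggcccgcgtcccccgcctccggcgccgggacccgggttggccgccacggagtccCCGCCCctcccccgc

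No transcription factor gene among the members passed the test. Myc stood at 0.24 on A and 0.13 on B, against 0 on the parental array. Both BCR-ABL arrays were slightly higher, and the difference of 0.18 (SE 0.15, interval -0.14 to 0.51) did not pass (limma adjusted p = 0.763). The upper end of that interval is 1.42-fold, so the interval does not exclude a difference of up to that size.

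Mycn, the paralogue best known from nervous tissue and early progenitors, stood at 0.28 on A and 0.41 on B, against 0 on the parental array. The difference of 0.35 did not pass (limma adjusted p = 0.248, unadjusted p = 0.0380). Max, the shared dimer partner, stood at 0.16 on both A and B, against 0 on the parental array, and did not pass (difference 0.16, limma adjusted p = 0.826). For Mycn and Max alike the BCR-ABL arrays lay above the parental one. The gaps between A and B were 0.13 and 0.003, exceeded by 48.1% and 98.6% of all genes.

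Of the repressors, Mxi1 stood at -0.45 on A and -0.27 on B, against 0 on the parental array, and its difference of -0.36 did not pass (limma adjusted p = 0.242, unadjusted p = 0.0364). Mnt stood at -0.10 on A and -0.25 on B, against 0 on the parental array, and its difference of -0.17 did not pass (limma adjusted p = 0.797). Mxd1 lay on either side of the parental array, at -0.06 on A and 0.13 on B (difference 0.04, limma adjusted p = 1.00). A and B stood together above or below the parental array for 8 of 9 members, 5 above and 3 below, and for 69.9% of all genes, 27.9% above and 42% below.

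**Figure D3:**
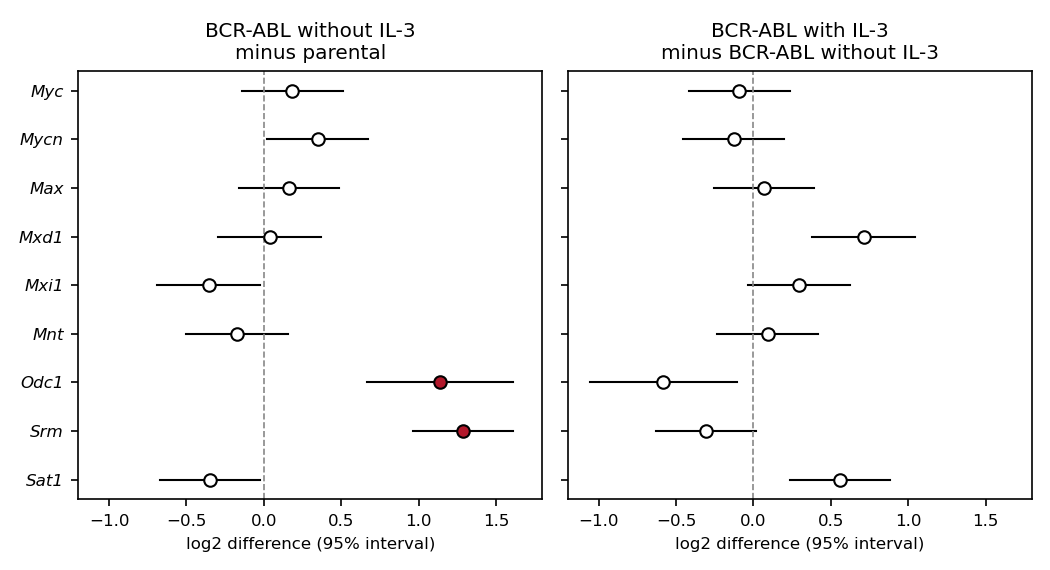
Log2 differences (horizontal axis) with 95% intervals from the limma fit for the 9 measured members, in BCR-ABL cells without IL-3 minus parental cells (left) and in BCR-ABL cells with IL-3 minus those without (right). Filled points passed an adjusted p of 0.05 over all genes: Odc1 at 1.14 and Srm at 1.29 on the left, and 0 members on the right.

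Many genes known to be induced by MYC rose. These and the lists below were chosen from general knowledge with earlier results of these data known. Of 30 MYC-induced targets measured, 19 were called higher and 0 lower by limma, against 5.19% and 2.87% of all genes, and 30 of 30 had a difference above 0. The list's median was 0.71, where that of all genes was -0.04. Gart, an enzyme of purine synthesis, was 2.61-fold higher (log2 1.39, SE 0.15, adjusted p = 1.09e-05), at 1.33 on A and 1.44 on B, against 0 on the parental array. Dnph1, a nucleotide hydrolase first found as a MYC-responsive gene, was 2.25-fold higher, and Bop1 and Nolc1, both of ribosome production, were 2.22-fold and 2.11-fold higher. The mitochondrial chaperone Hspd1 was 2.12-fold higher. Among the 11 that did not pass, named after their values were seen, were the glycolytic enzyme Ldha (0.06), the telomerase subunit Tert (0.06), the transferrin receptor Tfrc (0.12), the nucleolar protein Npm1 (0.24) and the kinase Cdk4 (0.32). After centring 18 of the 30 were called higher and 0 lower, where 637 and 299 of all 19935 genes were.

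Of 14 measured genes known to be repressed by MYC, limma called 4 lower and 1 higher, against 2.87% and 5.19% of all genes. Their median was -0.15. Ndrg1, a differentiation-linked gene, stood at -0.54 on A and -1.23 on B, against 0 on the parental array (difference -0.88, limma adjusted p = 0.0111). Txnip, an inhibitor of thioredoxin and of glucose uptake, differed by -0.88, the CDK inhibitor Cdkn1b by -0.79 and the growth arrest gene Gadd45a by -0.73. Gadd45b, its relative, was the 1 gene of this list called higher (log2 0.58, limma adjusted p = 0.0267). The gap between A and B was between 0.53 and 0.81 for the 4 lower genes, and 0 of them were called after centring, with a robust prior or when probe sets were fitted singly.

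**Figure D4:**
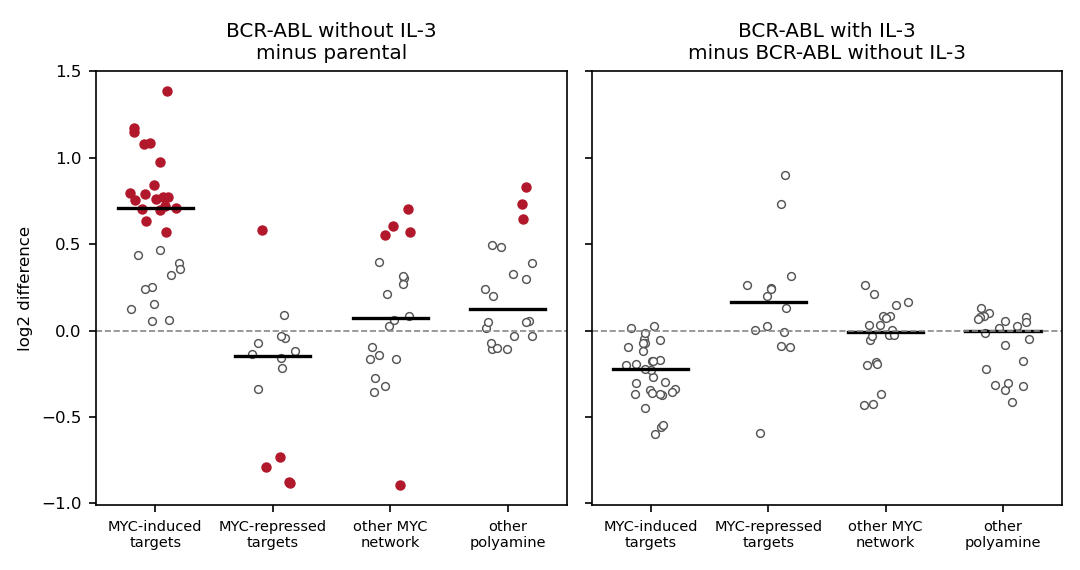
Log2 differences (vertical axis) of single genes in 4 lists (horizontal axis), for BCR-ABL cells without IL-3 minus parental cells (left) and BCR-ABL cells with IL-3 minus those without (right), with a black line at each list's median. Filled points passed an adjusted p of 0.05 over all genes; the MYC-induced targets have a median of 0.71 on the left, with 19 of 30 filled, and of -0.22 on the right, with 0 filled.

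Of 20 further genes of the MYC network, limma called 4 higher and 1 lower (median 0.07), against 5.19% and 2.87% of all genes. Mxd4, a repressor of the MXD family, stood at -0.69 on A and -1.10 on B, against 0 on the parental array, and was 1.86-fold lower (log2 -0.90, SE 0.18, adjusted p = 0.00265). Mlx, which pairs with some MXD proteins and with the glucose-sensing MONDO factors in place of MAX, was at 0.67 on A and 0.74 on B. It was 1.63-fold higher (limma adjusted p = 0.00629). The MYC cofactors Ruvbl1 and Ruvbl2, helicases of chromatin remodelling complexes, were higher by 0.60 and 0.55, and Fbxw7, which marks MYC protein for degradation, by 0.57. Mxd4 and Mlx had an adjusted p under 0.05 after centring (0.0461 and 0.0363), and Ruvbl1, Ruvbl2 and Fbxw7 did not (0.0629, 0.104 and 0.0883).

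Of 20 further polyamine genes limma called 3 higher and 0 lower (median 0.13), against 5.19% and 2.87% of all genes. Mtap, which recycles the methylthioadenosine that SRM and SMS release, stood at 0.90 on A and 0.76 on B, against 0 on the parental array, and was 1.78-fold higher (log2 0.83, SE 0.16, adjusted p = 0.00186). Azin2, an antizyme inhibitor, was higher by 0.73 (adjusted p = 0.0115), and Dhps, which uses spermidine to begin the hypusine modification of EIF5A, by 0.65 (adjusted p = 0.0110). After centring Mtap and Dhps were called (adjusted p = 0.0189 and 0.0390) and Azin2 was not (0.0600). Amd1, Amd2, Oaz1, Paox and Mat2a had no probe set of a single symbol.

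Next, the BCR-ABL array with IL-3 (n = 1) was set against A and B (n = 2), which addressed what the cytokine adds while the kinase is on. It shares arrays A and B with the first comparison, where they enter with the opposite sign. An error that raises a gene on A and B therefore lowers its difference here, and the reverse. Opposite directions in these comparisons are thus not independent results. No member was called by limma, where 0.00502% of all genes were, and none was called by any other setting tried. At an unadjusted p under 0.05 there were 3 members, Mxd1, Sat1 and Odc1, against 4.52% of all genes. The lone IL-3 array was assumed to vary like A and B. It lay outside the range of A and B for 9 of 9 members, above both for 5 and below both for 4, where the same held for 65.4% of all genes, 39.9% above and 25.5% below.

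Mxd1, the MAX partner that opposes MYC, stood at 0.75 with IL-3, against -0.06 on A and 0.13 on B without it. The IL-3 array was the highest by a margin wider than the gap between A and B. The difference of 0.71 was 1.64-fold (SE 0.16, interval 0.38 to 1.04), ranked 22 from the top of all genes and did not pass (limma adjusted p = 0.326, unadjusted p = 0.000295). Sat1 stood at 0.21 with IL-3, against -0.40 on A and -0.30 on B, and its difference of 0.56 did not pass (limma adjusted p = 0.478, unadjusted p = 0.00203). Sat1 was above the parental array with IL-3 and below it on both arrays without.

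The synthesis enzymes stood lower with IL-3. Odc1 was at 0.55 with IL-3, against 0.74 on A and 1.53 on B (difference -0.58, interval -1.05 to -0.11, limma adjusted p = 0.904). The difference was -0.19 from A alone and -0.98 from B alone, so its size rested on B. Srm was at 0.98 with IL-3, against 1.32 on A and 1.26 on B (difference -0.30, interval -0.63 to 0.02, limma adjusted p = 1.00). The 2 Sms probe sets were at 0.36 and 0.33 with IL-3, below their values on A and on B. None of these differences passed. The limit of the shared arrays holds for Srm and Odc1, which were called as higher on A and B.

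For the other network members the differences with IL-3 lay between -0.13 and 0.30. Myc stood at 0.09 with IL-3, against 0.24 on A and 0.13 on B (difference -0.09, interval -0.42 to 0.23), and Mycn at 0.22, against 0.28 and 0.41 (difference -0.13, interval -0.45 to 0.20). Max stood at 0.23 with IL-3, against 0.16 on both A and B (difference 0.07, interval -0.25 to 0.39). Mxi1 stood at -0.06 with IL-3, against -0.45 on A and -0.27 on B (difference 0.30, interval -0.04 to 0.63), and Mnt at -0.08, against -0.10 and -0.25 (difference 0.09, interval -0.24 to 0.42). The limma adjusted p of each of these 5 was 1.00. Of the 9 members, Myc, Mycn, Odc1 and Srm lay below both A and B with IL-3, and Max, Mxd1, Mxi1, Mnt and Sat1 above both.

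With IL-3, 28 of 30 MYC-induced targets had a difference below 0 and 0 were called by limma. At an unadjusted p under 0.05 there were 10, against 4.52% of all genes. The IL-3 array was below both A and B for 24 of the 30 and above both for 0. Over all genes these shares were 25.5% and 39.9%. The list's median was -0.22, where that of all genes was 0.03. This list lay above 0 in the first comparison, where A and B enter with the opposite sign. How much of its reversal comes from these shared arrays was not tested. The values furthest from 0 were those of Gart (-0.60) and of Dnph1 (-0.56) and Ppat (-0.55), the last being the first enzyme of purine synthesis, with limma adjusted p-values of 0.448, 0.478 and 0.478. Of the 14 MYC-repressed genes 0 were called and 3 had an unadjusted p under 0.05, against 4.52% of all genes. Ndrg1 stood at 0.02 with IL-3, against -0.54 on A and -1.23 on B (difference 0.90, limma adjusted p = 0.362), and Gadd45a at 0.00, against -0.998 on A and -0.47 on B (difference 0.73, adjusted p = 0.448). Txnip stood at -1.47 with IL-3, against -0.47 on A and -1.28 on B (difference -0.59, adjusted p = 0.901), below both, unlike Ndrg1 and Gadd45a.

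Among the 20 further network genes and the 20 further polyamine genes 0 were called by limma with IL-3. At an unadjusted p under 0.05 there were 3 and 2, against 4.52% of all genes. The medians were -0.01 and -0.00. The network values furthest from 0 were Mycbp, a MYC-binding protein (-0.43), the mitotic kinase Aurka, which shields MYCN protein from degradation (-0.42), and Ruvbl1 (-0.37). The polyamine values furthest from 0 were Atp13a3, a polyamine transporter (-0.42), Apip of the methionine salvage pathway (-0.34) and the antizyme inhibitor Azin1 (-0.32).

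Last, the BCR-ABL array with IL-3 (n = 1) was set against the parental array (n = 1), where the cytokine is common to both and there is no replicate check. Srm was the furthest from the parental array of the 9 members, at 0.98 or 1.98-fold, followed by Mxd1 at 0.75 and Odc1 at 0.55. Of the members 0 were at least 2-fold apart, where 1.62% of all genes were, and Srm lay just under that size. At 1.5-fold there were 2, Srm and Mxd1, against 5.83% of all genes. Mycn (0.22), Max (0.23) and Sat1 (0.21) stood above the parental array, Myc at 0.09, and Mxi1 (-0.06) and Mnt (-0.08) below it. Over the lists, the medians were 0.46 for MYC-induced targets, 0.00 for MYC-repressed genes, 0.04 for the further network genes and 0.06 for the further polyamine genes, where that of all genes was 0.01.

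The genes with the most similar values to each called member were found by the Euclidean distance over 3 log2 differences, those of the IL-3 array, A and B from the parental array, among 18007 protein-coding genes. For Srm these were the transcription factor Etv5 (distance 0.06), the costimulatory receptor ligand Cd80 (0.11) and the adaptor Clnk (0.13). For Odc1 they were Clec12a (0.10), Ccdc141 (0.18) and Hao1 (0.24). With 3 values per gene this is a description of these arrays.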

How the data were processed

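Total RNA was labelled with biotin and hybridised to Gene 1.0 ST arrays, per the labels' protocols. What the authors deposited was taken as log2 differences from the parental array, since its column is 0 in all 28815 probe sets. Background correction, normalization, probe set summary and log base are not given in the sources used here. A base of 2 was assumed. Of the 86431 nonzero values 99.5% fall on whole multiples of 2 to the power -21 within the rounding of their digits. That is the spacing of stored numbers between 4 and 8. It does not tell base 2 from another base, so every fold value rests on the assumption. A value at an odd multiple points to a stored number below 8. This held for 11105 probe sets and for 0 members. Among the genes named as called it held for Fbxw7, Cdkn1b and Cma1, and among the nearest genes for Cd80, Ccdc141 and Hao1. The number of arrays limits the precision.

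The platform annotation gave 1 symbol to 21780 probe sets, several to 1605 and did not list 5430. Of the first, 21689 matched the RefSeq gene table (GRCm38.p6) by gene identifier. Probe sets were averaged for 998 genes. All 4 arrays were fitted with 3 group means in limma 3.58.1 (R 4.3.3), with 1 residual degree of freedom, a prior SD of 0.128 and prior degrees of freedom of 16.38. Subtracting the parental array from all leaves these contrasts unchanged. Two-sided p-values were adjusted by Benjamini-Hochberg over 19935 genes. The fit was also run on simulated data, with the noise of all 4 arrays drawn from the differences between A and B. That run could not check whether the lone arrays vary like A and B. The members and lists were chosen with earlier results of these data known. Named genes were all members, up to 5 called genes of each list by size or, where fewer than 3 were called, the 3 furthest from 0, and the 3 nearest genes to each called member. The called marker genes, and 5 MYC-induced targets that did not pass, fall outside this rule and were named after their values were seen. Alternatives tried were centring, a threshold of 0.1, a robust prior, probe sets fitted singly, leaving out probe sets at odd multiples, other fold sizes, a limma call for 1 array against 1, and leaving out A or B.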

Additional observations from a re-analysis of the deposited data

How the results depend on the processing

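The call of Srm in BCR-ABL cells without IL-3 against parental cells was the same under every alternative fitted by limma. So was the absence of member calls in BCR-ABL cells with IL-3 against those without. Members called higher in BCR-ABL cells without IL-3 fell to 1 after centring and to 1 with a robust prior, both through Odc1, whose difference was then 1.17 and 1.14. The listed pathway genes were 30 MYC-induced, 14 MYC-repressed, 20 further network and 20 further polyamine genes. Of these 27 were called higher and 5 lower, against 5.19% and 2.87% of all genes. The lower count was 1 after centring, 1 with a robust prior and 1 with probe sets fitted singly. By list, the further network genes called higher went down to 1 after centring and 1 with single probe sets, the further polyamine genes called higher reached 5 at a threshold of 0.1, and Gadd45b was lost with single probe sets (0 called). Over all genes 1607 were called, 1035 higher and 572 lower. After centring 936 were called, 637 higher and 299 lower, and with a robust prior 980 were higher and 557 lower. Members at least 2-fold above the parental array on both A and B were 1, or 2 at 1.5-fold, and between 1 and 2 when A or B was left out, the second being Odc1 on B alone. Members of BCR-ABL cells with IL-3 apart from parental cells were 0 at 2-fold, 2 at 1.5-fold and 2 by a limma call that borrows the spread of A and B, Srm (adjusted p = 0.00220) and Mxd1 (adjusted p = 0.0225, and 0.130 after centring), where 4.3% of all genes were called. Leaving out A or B leaves no residual degree of freedom, so counts by limma were not run there. The cause of these shifts was not tested.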
